A study of Macaca mulatta with 304 samples.

Results

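Surface Toll-like receptors (TLRs) and the genes of the inflammasome were followed in the whole blood of rhesus macaques after irradiation of the thorax. The genes were chosen by symbol: the 5 receptors TLR1, TLR2, TLR4, TLR5 and TLR6, and the 5 inflammasome genes NLRP3, NLRC4, AIM2, PYCARD and CASP1. Of these 10 symbols 9 had a row in the count table of 21070 genes, and all 9 were among the 13751 genes with enough counts to be tested. The symbol CASP1 had no row. A row named LOC706568, which the annotation gives as caspase-1, is described beside the others and is not counted among the 9.

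Whole blood from 28 adult macaques of the Chinese sub-strain (14 females and 14 males) was sequenced after ribosomal RNA was removed. A linear accelerator delivered 9.8 Gy to the thorax of 12 animals (LD) and 10.7 Gy to 16 animals (HD). There were 24 control samples, each taken 2 days before irradiation from a different animal, 151 samples from irradiated LD animals and 129 from irradiated HD animals. The controls were the same animals before exposure, so no group of unexposed animals was followed over time. Every animal was given ondansetron and ketamine/xylazine for the procedure and an opioid analgesic in the weeks after it, and dexamethasone was given for rapid breathing. Which samples followed dexamethasone is not analysed here. An animal that had to be euthanized between scheduled days gave a last sample, so the late samples came from animals that had lived that long. Counts were summed per animal over 3 windows: early (Day 3 to 21, 24 animals with a control), medium (after Day 21 to Day 90, 24 animals) and late (after Day 90, 14 animals). Of the 14 animals in the late comparison 12 were LD and 2 were HD.

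TLRs of the cell surface recognise microbial products: TLR4 binds lipopolysaccharide together with LY96, TLR5 binds flagellin, and TLR2 pairs with TLR1 or TLR6 to bind lipopeptides. They signal through MYD88 to NF-kB, which raises the transcription of cytokines and of NLRP3 itself. Inflammasomes are cytosolic complexes in which a sensor (NLRP3, NLRC4 or AIM2), often through the adaptor PYCARD (ASC), activates caspase-1, which matures IL1B and IL18. In blood many of these genes are known from neutrophils and monocytes.

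Samples held between 2840219 and 23638161 counted reads (median 8227563). Library names carried numbers whose meaning is not given in the sources used here, and which fell into 3 ranges: a low range, a high range and the number 0. Of the 24 controls 20 were in the low range and 4 had the number 0, whereas all medium and late samples were in the high range or had the number 0. Only 4 of 24 animals at medium time points and 1 of 14 at late time points had a sample in the range of their own control. For the other animals, time after irradiation and library number cannot be told apart in a comparison with the control. In 6 samples the median correlation with the other samples was under 0.9, and 5 of them were late samples. Leaving these 6 out kept the number of the 9 genes called at 1 (early), 0 (medium) and 8 (late). Blood of the animals held RNA of the cell types that whole blood should hold, and no marker with a row was at 0 in all samples.

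Before irradiation the 9 genes differed widely in level. Levels between genes are given as CPM (counts corrected for library size and scaled by the upper quartile) per kilobase of exon. AIM2, a sensor of cytosolic DNA, was highest, with a median of 66.5 CPM per kilobase over 24 animals (range 21.4 to 127). TLR2 (41.4, range 19.4 to 160), TLR4 (37.9, range 14.9 to 174) and PYCARD (34.4, range 21.7 to 53.8) followed. TLR6 (14.5), TLR1 (12.4) and NLRP3 (11.2) lay below them, and LOC706568 lay at 16.2 CPM per kilobase. TLR5 was lower, with a median of 3.48 CPM per kilobase (range 1.72 to 13.8). NLRC4, the sensor of bacterial flagellin and secretion systems, was near the limit of detection at 0.215 CPM per kilobase. Over all samples, controls and irradiated, its median count was 14.5 (range 0 to 191). Neighbours in this order overlapped in range, except TLR5 and NLRC4, of which TLR5 was higher in 24 of 24 animals. AIM2 exceeded TLR2 in 21 of 24 animals and NLRP3 exceeded TLR5 in 23 of 24, whereas TLR2 exceeded TLR4 in only 13 of 24 and TLR1 exceeded NLRP3 in 15 of 24. The control level varied least between animals for PYCARD (2.48-fold from lowest to highest) and most for NLRC4 (14-fold) and TLR4 (11.7-fold).

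TLR1 and TLR6 lie next to each other on the minus strand of chromosome 5 in Mmul_10, at chr5:37935710-37945703 and chr5:37964499-37994060. Their coding exons share an identical stretch of 244 bases. A read wholly within it cannot by itself be assigned to either gene, though the other read of its pair can lie outside it. The stretches below show the base that ends this identical run, after which the printed bases are again the same. Each is 150 coding bases long, 5′ to 3′, from TLR1 at chr5:37936576-37936725 and TLR6 at chr5:37965755-37965904, and the capital marks the only base that differs between them.
TLR1: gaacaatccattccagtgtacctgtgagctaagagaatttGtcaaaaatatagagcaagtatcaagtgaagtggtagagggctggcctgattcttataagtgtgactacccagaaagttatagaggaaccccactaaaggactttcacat
TLR6: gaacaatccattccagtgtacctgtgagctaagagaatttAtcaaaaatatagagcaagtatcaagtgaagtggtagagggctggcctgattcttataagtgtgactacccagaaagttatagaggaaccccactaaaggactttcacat
Of the stretches of 50 bases in the TLR1 transcripts, 12% also occurred in TLR6, and none occurred in TLR10, whose longest run shared with TLR1 was 37 bases. The values of TLR1 and TLR6 are therefore not fully separate. TLR2 (chr5:151322435-151347090, plus strand), TLR4 (chr15:25088083-25105816, minus strand) and TLR5 (chr1:80784492-80817882, minus strand) shared no stretch of 50 bases with TLR1 or TLR6.

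At late time points all 5 surface TLRs rose against the animals' own controls. A gene was called where its fold change was 1.5 or more and edgeR's quasi-likelihood test, adjusted over all tested genes by Benjamini-Hochberg, gave a p no higher than 0.05. Of all tested genes 14% were called higher and 18.5% lower at late time points, and 8 of the 9 genes described here were called higher. Over all tested genes the median log2 fold change was -0.13. In whole blood, more cells of a type and more RNA per cell cannot be told apart.

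**Figure D1:**
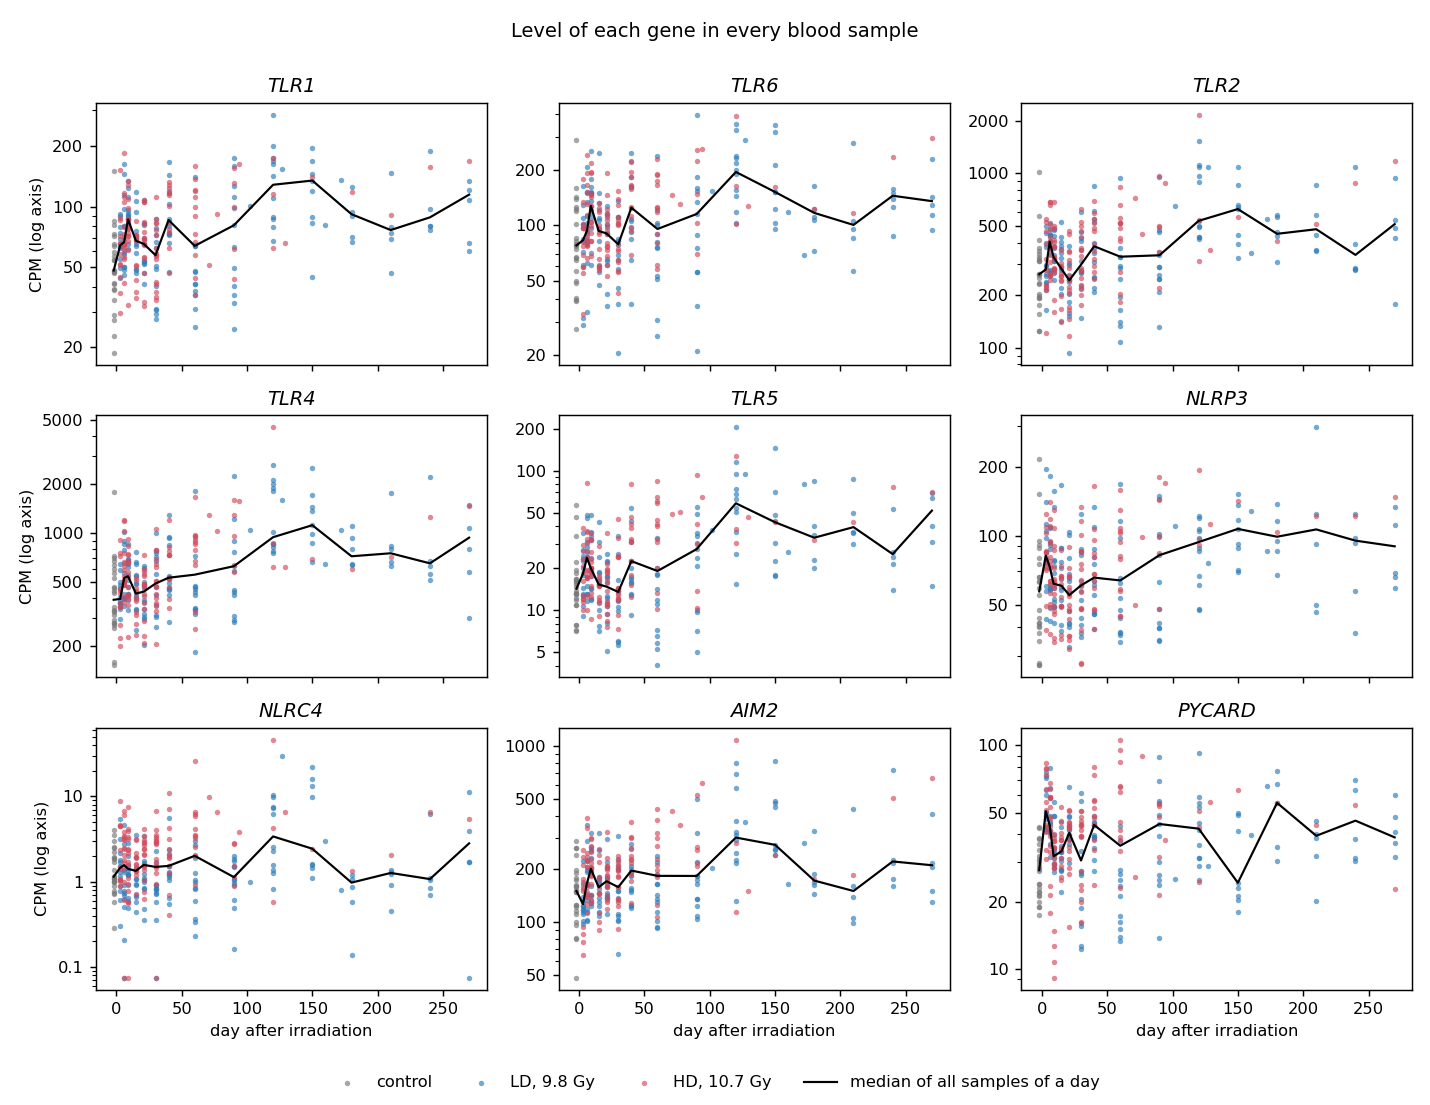
Level of each gene in CPM (log axis) in every sample against the day after irradiation. Grey points are controls, blue points LD, red points HD, and the line joins the medians of days with at least 6 samples; NLRC4 samples with a count of 0 are drawn at the lowest nonzero value. The lines of the 5 TLRs are highest at Day 120 or 150, while PYCARD has its highest early value at Day 3.

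TLR5, the receptor for flagellin, rose most. Its controls ranged from 6.96 to 55.8 CPM (median 12.9, 14 animals) and the late samples from 24.2 to 136.2 CPM (median 45.2). The groups overlapped, yet 13 of 14 animals had a higher level than their own control. The log2 fold change was 1.87 (SE 0.27, edgeR adjusted p = 2.81e-05).

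TLR4 ranged from 159 to 1760 CPM in controls (median 394) and from 708 to 2090 CPM in late samples (median 1050). Its log2 fold change was 1.39 (SE 0.29, edgeR adjusted p = 0.000577). The groups overlapped, and a single control (that of animal B1504) lay above the median of the late samples. TLR2 averaged 314.1 ± 217.8 CPM in controls (SD, n = 14, median 283.5, highest 1010) and ranged from 377.5 to 996.6 CPM in late samples (median 617.7), with a log2 fold change of 1.18 (SE 0.24, edgeR adjusted p = 0.000536). The groups overlapped, and the highest control of these 14 animals lay above their highest late level.

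The partners of TLR2 rose as well. TLR1 ranged from 18.4 to 147.6 CPM in controls (median 47) and from 74 to 196.9 CPM in late samples (median 111.1), with a log2 fold change of 1.27 (SE 0.20, edgeR adjusted p = 5.37e-05). TLR6 ranged from 27.3 to 284 CPM in controls (median 70.1) and from 96.4 to 348 CPM in late samples (median 169), with a log2 fold change of 1.16 (SE 0.23, edgeR adjusted p = 0.000459). In each of the 5 TLRs 13 of 14 animals were higher than their own control.

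The 3 sensors of the inflammasome rose as well. NLRC4 (chr13:76637872-76673144, plus strand) ranged from 0.287 to 3.5 CPM in controls (median 1.04) and from 0.972 to 15.5 CPM in late samples (median 2.46), with a log2 fold change of 1.58 (SE 0.30, edgeR adjusted p = 0.000285). These values rest on few counts. Exons of NLRC4 overlap those of SLC30A6 on the opposite strand over 1712 of 5339 bases, and whether the counting used the strand is not stated. SLC30A6 had a late log2 fold change of 0.12 (edgeR adjusted p = 0.48).

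AIM2 (chr1:91777410-91902069, plus strand) ranged from 80.3 to 282 CPM in controls (median 147) and from 176 to 608 CPM in late samples (median 269), with a log2 fold change of 0.99 (SE 0.22, edgeR adjusted p = 0.00101, higher in 12 of 14 animals). NLRP3 (chr1:1562863-1596246, minus strand), the sensor of potassium efflux and membrane damage, ranged from 27 to 212.6 CPM in controls (median 62.2) and from 58.1 to 167.4 CPM in late samples (median 98.4). Its log2 fold change was 0.59 (SE 0.18, edgeR adjusted p = 0.00945, higher in 12 of 14 animals). NLRP3 lay at the fold threshold. Without the animal as a block it had a log2 fold change of 0.40 and an adjusted p of 0.168, and leaving out any of 6 animals (B1001, B1005, B1006, B1506, B2502 or B2504) put it at 0.52 to 0.55, below the threshold.

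PYCARD (chr20:28633640-28634953, minus strand), the adaptor between sensor and caspase, was the member that was not called at late time points. It ranged from 17.2 to 42.7 CPM in controls (median 25.6) and from 24.9 to 57.4 CPM in late samples (median 39.1). Its log2 fold change of 0.56 (SE 0.12) missed the fold threshold, although the edgeR adjusted p was 0.000934 and 13 of 14 animals were higher. It passed with TMM scaling (0.65) and with DESeq2 (0.68). LOC706568 (chr14:98269430-98279561, minus strand) rose by 0.64 on the log2 scale (edgeR adjusted p = 0.00475).

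A single LD animal, B1504, went against the rest. It had the highest control level of TLR4, 1760 CPM, and its late level was 1030 CPM. Its log2 differences from control were -0.77 for TLR4, -0.66 for TLR2, -0.58 for TLR1, -0.58 for TLR5 and -0.91 for TLR6. Its only late sample was the unscheduled one of Day 102. The summed level of mature neutrophil markers in its control, 12900 CPM, was also the highest of the 14 controls, and it was 8320 CPM late. In the late panel of the plot of changes by animal, B1504 is the lowest point of each TLR, though animals are not labelled there.

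**Figure D2:**
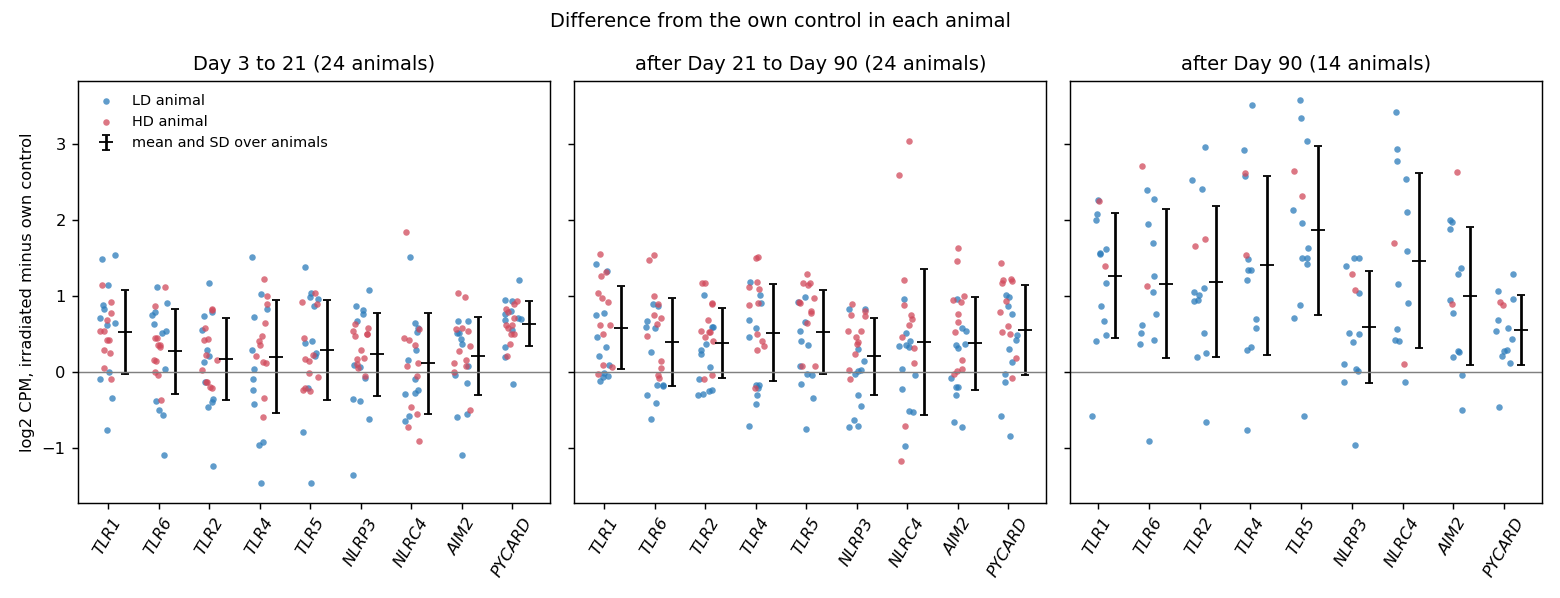
Log2 difference from the animal's own control for each gene and animal, in the early (24 animals), medium (24 animals) and late (14 animals) windows. Blue points are LD and red points HD animals, with the mean and SD. In the late window 1 animal lies below 0 and 13 lie above it in each of the 5 TLRs.

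Markers of granulocytes rose over the same interval. Of 18 mature neutrophil markers (such as CSF3R and CXCR2) 15 were called higher at late time points, with a median log2 fold change of 1.28. Their summed level went from 1390 to 12900 CPM in controls (median 4720) to 6050 to 16800 CPM in late samples (median 8580), and was higher in 12 of 14 animals. No mature neutrophil marker with a row was at 0 in all samples. Of 8 neutrophil precursor granule markers 7 were called higher, and of 13 monocyte markers 7 were called higher and 1 lower, with a summed level of 838 to 4380 CPM in controls and 2110 to 5890 CPM late. All 8 platelet markers (summed median 1610 to 2710 CPM, higher in 13 of 14 animals) and 3 of 5 eosinophil markers were called higher, and all 12 B cell markers and 9 of 12 T cell markers were called lower. The part of these markers in the rise of the TLRs and sensors was not tested.

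B1501 and B1504 were the animals whose mature neutrophil sum was not higher late. In B1501 that sum was 7150 CPM in the control and 7030 CPM late, while TLR1 went from 27.1 to 107.9 CPM, TLR4 from 458 to 1160 CPM and AIM2 from 146 to 376 CPM. NLRP3 in B1501 went from 87.5 to 79.3 CPM. Other marker sums of B1501 moved: neutrophil precursor granule markers went from 193.6 to 434.5 CPM, monocyte markers from 2300 to 2970 CPM and B cell markers from 1080 to 361.8 CPM.

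The late rise was also seen without the controls. In the 16 animals with both medium and late samples, 8 of the 9 genes were called higher late than at medium time points, against 9.38% of all tested genes called higher and 12.6% called lower. NLRC4 had a log2 fold change of 1.71 (edgeR adjusted p = 0.000123), TLR5 1.56 (8.77e-06), TLR4 1.09 (8.9e-05), TLR2 0.99 (6.74e-05) and TLR6 0.93 (0.000136). TLR5 was higher in 16 of 16 animals and TLR2, TLR4, TLR6, NLRP3 and NLRC4 in 15 of 16. AIM2 (0.87), TLR1 (0.80) and NLRP3 (0.60) were called as well, and PYCARD (0.22) was not. Without the animal as a block NLRP3 fell below the fold threshold at 0.55.

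At early time points PYCARD was the only one of the 9 genes that was called. Of all tested genes 5.79% were called higher and 1.75% lower. PYCARD ranged from 18.3 to 45.3 CPM in the controls of 24 animals (median 28.9) and from 28.1 to 62 CPM early (median 44.1), with a log2 fold change of 0.63 (SE 0.06, edgeR adjusted p = 1.3e-09). The groups overlapped, and 23 of 24 animals were higher. LOC706568 rose by 0.68 on the log2 scale (edgeR adjusted p = 5.29e-07, 23 of 24 animals). TLR1 had a log2 fold change of 0.52 (edgeR adjusted p = 0.00019), below the fold threshold, and the other TLRs lay between 0.17 (TLR2) and 0.29 (TLR5). NLRP3 (0.23), AIM2 (0.21) and NLRC4 (0.09) had adjusted p-values of 0.0656, 0.0798 and 0.578 by edgeR. PYCARD was no longer called when the library number range was a term in a fit of unsummed samples (0.58). Nor was it called when the deposited log2 values were tested with limma (0.52).

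Over the same days 6 of 13 monocyte markers and all 10 erythroid markers were called higher, while of 18 mature neutrophil markers 1 was called higher and 1 lower. Of 12 B cell markers 10 were called lower (summed median 1730 to 763.3 CPM, higher in 1 of 24 animals), and of 8 platelet markers 5 were called higher (summed median 1720 to 3010 CPM, higher in 23 of 24). The summed monocyte level ranged from 889 to 4640 CPM in controls (median 1900) and from 1500 to 3380 CPM early (median 2380), and no monocyte marker with a row was at 0 in all samples. The summed erythroid level went from a median of 6740 CPM (1840 to 12300) to 17900 CPM (7060 to 35600). The part of these markers in the early level of PYCARD was not tested.

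At medium time points none of the 9 genes was called by edgeR, against 4.48% of all tested genes called higher and 1.27% called lower. All 9 had an unadjusted p under 0.05 by edgeR, as did 7141 of the 13751 tested genes. DESeq2 called 1 of the 9, and 858 of all tested genes in either direction. The log2 fold changes lay between 0.20 (NLRP3) and 0.57 (TLR1, edgeR adjusted p = 6.18e-05, higher in 19 of 24 animals), so the fold threshold and not the p decided for most of them. PYCARD was at 0.54, TLR5 at 0.52 and TLR4 at 0.51. The 4 animals with a medium sample in the library number range of their control were all HD. In these 4 animals 6 genes were called: TLR1 at 1.05, AIM2 at 1.01, TLR6 at 0.99, TLR4 at 0.93, PYCARD at 0.90 and TLR5 at 0.79. Of the 13751 tested genes 721 were called higher and 460 lower in them. Dose and library number range cannot be told apart in that fit.

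Day by day, each day was compared with the same controls. On Day 3 PYCARD was called alone (6.89% of all tested genes were called higher), with 24 of 24 animals higher. Its level went from a control median of 28.8 to 52.8 CPM (range 32.4 to 86.4), a log2 fold change of 0.99 (SE 0.08, edgeR adjusted p = 1.44e-11). On Day 6 PYCARD (0.69), TLR1 (0.62) and TLR5 (0.61) were called (6.04%), and on Day 9 TLR1 (0.78) and TLR6 (0.63) were called (5.15%), when PYCARD was at 0.12. Among the early days PYCARD was called on Day 3 and Day 6 only.

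Few of these genes passed in the weeks that followed. None was called by edgeR on Day 15 (5.11% of all tested genes called higher), Day 21 (7.65%), Day 30 (4.57%), Day 60 (2.31%) or Day 90 (3.87%). An unadjusted p under 0.05 by edgeR was seen for 2, 4, 0, 2 and 4 of the 9 genes on these days. It was seen for 6678, 7951, 5065, 4678 and 4982 of the 13751 tested genes. DESeq2 called none of the 9 except 2 on Day 90, when it called 1142 of all tested genes in either direction. Day 40 stood between them: TLR1 (0.89), PYCARD (0.68), TLR5 (0.66) and TLR6 (0.66) were called on that day (4.07%), in 24 animals, of which 20 to 23 were higher.

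From Day 120 most members passed. On Day 120 (12 animals, 12.7% of all tested genes called higher) 7 of the 9 genes were called, all but NLRP3 and PYCARD. TLR5 went from a control median of 12.3 to 57.9 CPM (range 15.3 to 203), a log2 fold change of 2.16 (SE 0.27, edgeR adjusted p = 3.89e-05), and TLR1, TLR2, TLR4 and TLR5 were each higher in 12 of 12 animals. On Day 150 (9 animals, 12%) 8 genes were called, all but PYCARD, and NLRC4 had its highest value of any day, 1.91.

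By edgeR fewer members passed on the scheduled days from Day 180, each with 6 animals. DESeq2 called 6 of the 9 on each of Days 180, 210 and 240, and 2647, 3957 and 2189 of all tested genes in either direction. On Day 180 (8.81%) the genes called by edgeR were TLR5 (1.41), TLR1 (1.01), PYCARD (0.90), TLR4 (0.86) and TLR2 (0.71). On Day 210 (12.8%) they were TLR5 (1.78), TLR4 (0.99), TLR2 (0.85) and TLR1 (0.81), and on Day 240 (3.26%) TLR1 (1.21) and TLR6 (0.91). On Day 270 no gene was called higher (0% of all tested genes), yet 6 of the 9 had an unadjusted p under 0.05 by edgeR, as did 4060 of the 13751 tested genes. DESeq2 called 6 of the 9 and 2344 of all tested genes in either direction, and the log2 fold changes lay between 0.38 and 1.70. No member was called lower on any of the 15 days. TLR1 was called on 8 days, TLR5 on 6, TLR6 on 5, TLR2, TLR4 and PYCARD on 4, NLRC4 and AIM2 on 2 and NLRP3 on 1.

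**Figure D3:**
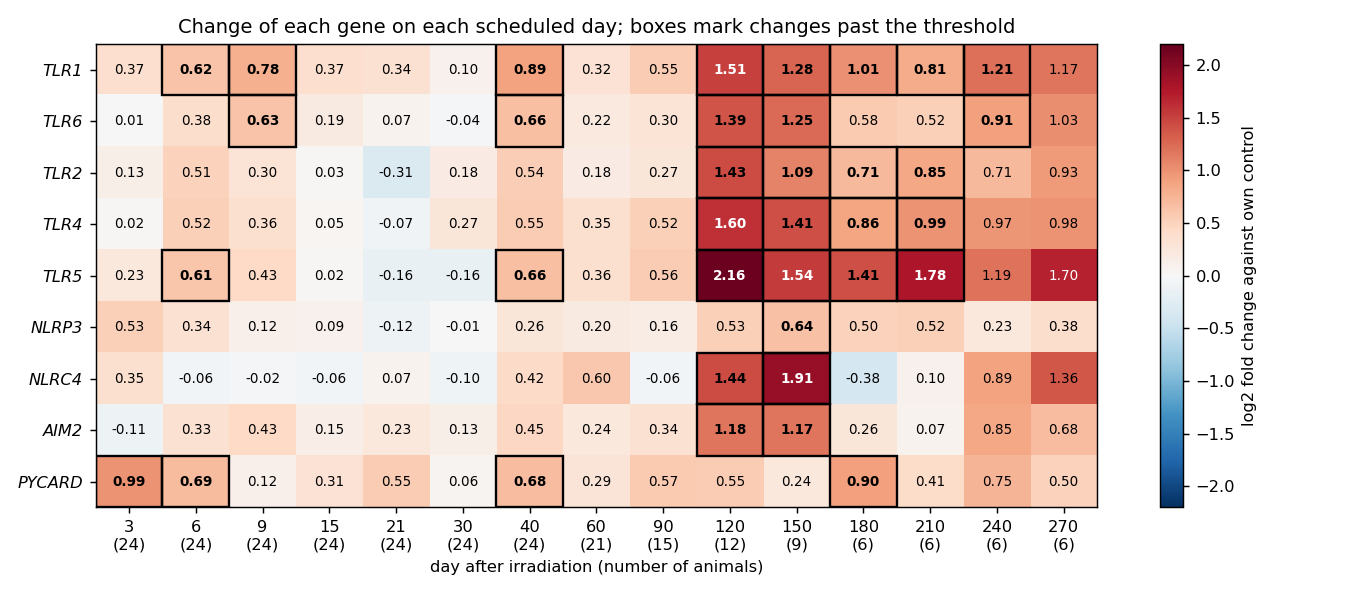
Log2 fold change of each gene against the animals' own controls on each scheduled day, with the value written in each cell. Boxes mark the changes that passed the thresholds. TLR5 reaches 2.16 on Day 120, and PYCARD has its highest value, 0.99, on Day 3.

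Days differed in their animals. In the 6 animals that were sampled to Day 270 (5 LD, 1 HD), TLR5 had a median of 12.4 CPM before irradiation (7.06 to 34.2), 8.66 CPM on Day 60 (5.77 to 18.3), 52.3 CPM on Day 120 (25.5 to 115.6) and 51.8 CPM on Day 270 (14.9 to 70.3). In the same animals TLR1 had a median of 47.7 CPM before irradiation, 42.7 CPM on Day 60 and 128.3 CPM on Day 120. PYCARD went from a median of 26 CPM (18.9 to 38.5) to 46.1 CPM on Day 3 (41.1 to 76.4), and to 23 CPM on Day 60. Among these 6 animals 6 of the 9 genes were called on Day 120, when 2464 of all 13751 tested genes were called in either direction. On Day 60 edgeR called 0 of the 9 and only 15 of all tested genes in them. An unadjusted p under 0.05 by edgeR was seen for 4 of the 9 and for 1487 of all tested genes.

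The dose comparison asked whether the change from control differed between HD and LD animals. For Day 3 to 21 (12 HD and 12 LD animals) edgeR called 0 of the 9 genes and 0% of all tested genes, with no member at an unadjusted p under 0.05 and none called by DESeq2. For Day 30 to 60, 3.93% of all tested genes differed between the doses and 2 members did. HD animals B2005, B2007 and B2503 had no Day 60 sample, while every LD animal had all the days summed. The part of this in the dose difference was not tested. TLR5 in HD animals went from a control median of 15 CPM (7.39 to 49.1) to 29 CPM (11.9 to 52.8), and in LD animals from 14.8 CPM (7.54 to 59.2) to 12.9 CPM (7.38 to 36.4). All 12 HD animals were higher than their control and 6 of 12 LD animals were. The mean log2 change was 0.81 ± 0.39 (SD, n = 12) in HD and 0.01 ± 0.53 (SD, n = 12) in LD animals, and the difference was 0.81 (SE 0.18, edgeR adjusted p = 0.00605).

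PYCARD in HD animals went from a control median of 27 CPM (19.8 to 44.6) to 48.1 CPM (34.3 to 65.5), and in LD animals from 29.6 CPM (18.3 to 45.3) to 33.5 CPM (21 to 45.7). The difference between the doses was 0.65 (SE 0.19, edgeR adjusted p = 0.0339). The other members also had a larger change in HD animals, with differences from 0.38 (TLR1) to 0.65 (NLRC4) that were not called; NLRP3, at 0.54, had an adjusted p of 0.0423 and missed the fold threshold. LOC706568 differed by 0.58 (edgeR adjusted p = 0.0331), also under it. All 12 LD controls were in the low range of library numbers, while 8 HD controls were and 4 HD controls had the number 0. With the 4 left out TLR5 stayed called (0.83, edgeR adjusted p = 0.0154) and PYCARD did not (0.61, edgeR adjusted p = 0.0758). Without the animal as a block neither was called (0.85 and 0.66, edgeR adjusted p = 0.319 and 0.139). That fit without the block called only 6 of the 13751 tested genes higher and 0 lower.

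**Figure D4:**
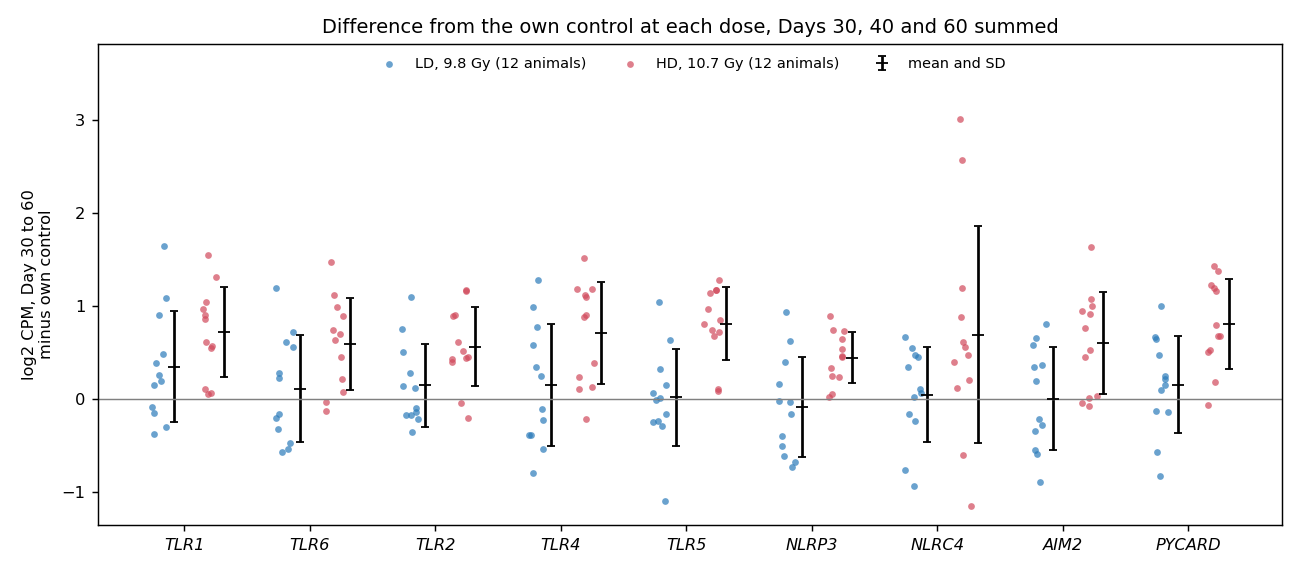
Log2 change from control at Day 30 to 60 in each animal, for LD (12 animals) and HD (12 animals), with the mean and SD. TLR5 averages 0.81 in HD and 0.01 in LD animals.

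Females and males did not differ by a called gene at Day 3 to 21. By edgeR 0 of the 9 genes and 0% of all tested genes differed in their change from control, with no member at an unadjusted p under 0.05, and DESeq2 called none. The differences (females minus males) ranged from -0.35 (NLRP3, SE 0.20) to 0.11 (PYCARD, SE 0.12). In 8 animals the unscheduled last draw, on Day 71 to 172, was compared with the scheduled draw before it. No gene was called higher or lower in that comparison (0% of all tested genes in either direction), no member had an unadjusted p under 0.05 by edgeR, and DESeq2 called none. NLRC4 ranged from 0.814 to 9.01 CPM before (median 3.55) and from 0.727 to 27.2 CPM at the last draw (median 4.77), with a log2 difference of 0.58 (SE 0.50), and PYCARD had a difference of -0.30 (SE 0.28).

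The other genes of the pathway were described by list. Of the 5 surface TLRs 5 were called higher at late time points (median log2 fold change 1.27) and of the 4 inflammasome genes 3 were (median 0.79), beside a median of -0.13 over all tested genes, of which 14% were called higher and 18.5% lower. The counts of the endosomal TLRs (1 and 1 of 8) and of the adaptors and kinases (2 and 3 of 22) are below those shares. Among 8 endosomal TLR genes 1 was called higher and 1 lower (median -0.17): TLR8, a receptor for single-stranded RNA, at 1.22 (edgeR adjusted p = 0.000289), and TLR7, which also binds single-stranded RNA, at -1.20 (0.000143). Of 9 co-receptors and accessory proteins 3 were called higher and 1 lower. ITGAM (1.49) and LY96 (1.31), the partner of TLR4, rose, as did TRIL (0.84, outside the rule for named genes), and CD180 of B cells fell by 1.31.

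Of 22 adaptors and kinases 2 were called higher and 3 lower (median 0.05). TICAM2 (0.84) and TICAM1 (0.78), adaptors of TLR4 and TLR3, were higher, and SARM1 (-0.93), IRAK2 (-0.77) and TRAF3 (-0.66) were lower, the last pair named after their values were seen. Of 11 inhibitors of TLR signalling 4 were called higher (median 0.30), namely IRAK3 at 2.37, DUSP1 at 1.45, NFKBIA at 1.34 and SOCS1 at 0.73, the last named after its value was seen. Among 20 other sensors and regulators of inflammasomes 11 were called higher (median 0.74), with SERPINB1 at 1.83, TXNIP at 0.99 and NAIP, which binds flagellin for NLRC4, at 0.96. The 1 called lower was P2RX7 at -0.61, named after its value was seen.

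The list of inflammasome products with their receptors and inhibitors had the largest values of these lists, and receptors led it. Of 11 genes, 9 were called higher at late time points (median 1.48). The largest were the decoy receptor IL1R2 at 3.20 (edgeR adjusted p = 0.000214), IL18RAP at 3.14 and IL18R1 at 3.06. Lower in that list lay IL18 (1.48) and IL1B (0.71), both called higher, and GSDMD (-0.08), which was not called. IL18, IL1B and GSDMD were named after their values were seen. Interferon response genes went otherwise: of 23, 1 was called higher (IRF7 at 0.76, named after its value was seen) and 6 were called lower, with USP18 at -0.98, OAS2 at -0.82 and HERC5 at -0.78. At early time points 13 of the 23 interferon genes were called higher (median 0.70), led by IFIT1 at 1.60 and IFI44L at 1.59, when none of the 5 surface TLRs was called.

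**Figure D5:**
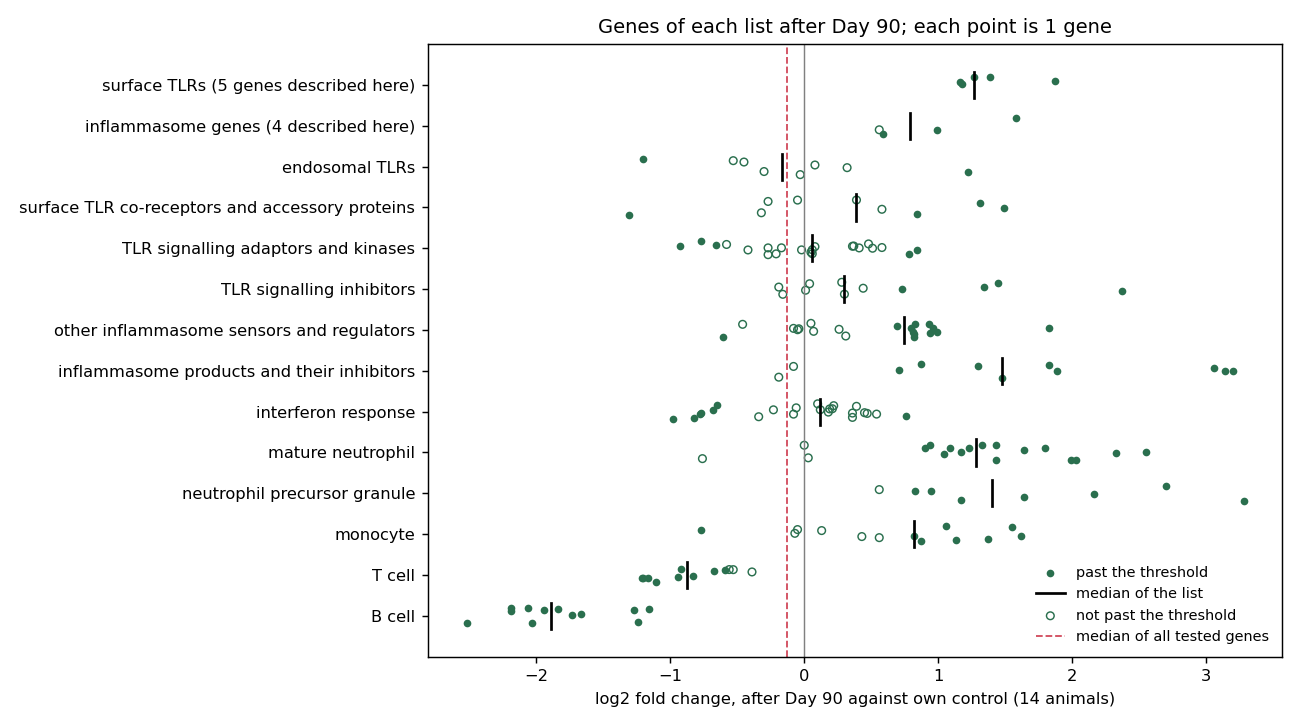
Log2 fold change at late time points of the genes of each list, with the median of the list. The surface TLRs all lie above 1, the interferon response genes lie mostly near 0 (median 0.12) and the median of the products and their receptors is 1.48.

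At early and medium time points fewer genes of these lists passed. Early, ATF3 (0.96), an inhibitor of TLR-induced transcription, IL1RN (0.65), the IL1 receptor antagonist, and the accessory proteins TRIL (1.05), CD36 (0.68) and LY96 (0.61, named after its value was seen) were called higher. At medium time points IRAK3 (0.92) and ATF3 (0.84), SERPINB1 (0.80), LY96 (0.76), CD36 (0.71) and TRIL (0.66, named after its value was seen) were called. So were 5 genes of the list of products, receptors and inhibitors, led by IL18RAP (0.92) and IL1RN (0.91). Another 5 were interferon genes, led by IFI44L (0.83) and IFI44 (0.76).

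The members varied together to different degrees. Correlations were computed over all samples of the 28 animals, on log2 CPM centred on each animal's mean, and are descriptions, since samples share libraries, depth and animals. TLR2 and TLR4 had r = 0.93, as did TLR1 and TLR6, which share a part of their sequence. PYCARD was least like the others, with r = 0.02 to AIM2 and 0.07 to TLR4. Most like TLR4 were GK (0.95) and CARD6 (0.94), most like TLR2 were TUT7 and LAMP2 (both 0.94), and most like TLR5 were FCGR2A (0.92) and NAIP (0.90). RNF13 was the most like gene for both TLR1 (0.91) and TLR6 (0.93), followed by TLR8 (0.89) and CCPG1 (0.92).

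The inflammasome genes had their own neighbours. AIM2 was most like TMEM71 (0.93) and OSTM1 (0.91), NLRP3 most like ATP6V1B2 and DAPK1 (both 0.83), NLRC4 most like SLA (0.72) and APH1B (0.71), and PYCARD most like ARPC1B (0.85) and MAPKAPK3 (0.81). With the mean of the mature neutrophil markers r was 0.90 for TLR5, 0.89 for TLR2, 0.85 for TLR4, 0.78 for TLR6, 0.70 for NLRP3 and AIM2, 0.69 for TLR1, 0.63 for NLRC4 and 0.31 for PYCARD. With the mean of the monocyte markers it was 0.69 for NLRP3, 0.60 for PYCARD and 0.03 to 0.40 for the other members.

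The sequence before each gene's start was searched for motifs of myeloid and inflammatory factors. In the window from 250 bases before to 50 bases after the start, on either strand, GAGGAAG (ETS family and PU.1) was found for TLR4 and PYCARD and in 12.2% of 21102 promoters. TTGCNNAA (C/EBP) was found for NLRC4 (9.3% of all), GGNNNTTCC (NF-kB) for TLR2 (18.6%), GAAANNGAA (interferon-stimulated response element) for TLR2 (7.93%) and TTCNNNGAA (STAT) for no member (6.99%). The stretches below are the 150 bases before the start of the 4 genes with a match there, 5′ to 3′ on the gene's strand, from Mmul_10, and capitals mark the matches that lie wholly within them. They lie at chr5:151322285-151322434 (TLR2, plus), chr15:25105817-25105966 (TLR4, minus), chr13:76637722-76637871 (NLRC4, plus) and chr20:28634954-28635103 (PYCARD, minus).
TLR2: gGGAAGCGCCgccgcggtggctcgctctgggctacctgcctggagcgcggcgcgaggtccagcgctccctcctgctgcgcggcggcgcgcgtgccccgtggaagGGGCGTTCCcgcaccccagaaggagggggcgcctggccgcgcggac
TLR4: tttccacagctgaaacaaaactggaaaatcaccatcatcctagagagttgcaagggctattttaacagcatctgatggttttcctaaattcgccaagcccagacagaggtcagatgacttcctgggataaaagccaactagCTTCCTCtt
NLRC4: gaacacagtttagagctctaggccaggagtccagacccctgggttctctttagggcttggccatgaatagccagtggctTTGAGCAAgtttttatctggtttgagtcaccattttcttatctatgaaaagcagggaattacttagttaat
PYCARD: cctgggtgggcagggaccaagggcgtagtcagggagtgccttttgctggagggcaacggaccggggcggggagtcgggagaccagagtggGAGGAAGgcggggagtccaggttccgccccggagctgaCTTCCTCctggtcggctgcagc
TLR2 holds a further GGNNNTTCC match that spans the start, of which only the first bases are shown, and it overlaps the GAAANNGAA match that follows the start. The other 5 members (TLR1, TLR5, TLR6, NLRP3 and AIM2) held none of these motifs in the window. A match in this window is a description of the letters and not a binding site.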

How the data were processed

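Total RNA of whole blood was depleted of ribosomal RNA and sequenced in pairs. Per the submitters' processing notes, the authors trimmed reads with cutadapt 2.10, aligned them with STAR 2.7.6a to Mmul_10 and counted them with Subread 2.0.1; the deposited table holds raw counts per gene. The authors' second deposited table holds log2 values after upper quartile scaling, and was used as an alternative only. Low genes were left out (a count of 3 or more was required in 80% of samples), and the rest were compared with edgeR 4.0.16 (quasi-likelihood test, upper quartile scaling, Benjamini-Hochberg adjustment) in R 4.3.3, with counts summed per animal and window and the animal as a block. Same-numbered samples are draws of the same animal; after removal of group means they correlated with a median r of 0.60 (early) and 0.28 (late). Calls needed a fold change of 1.5 or more with an adjusted p no higher than 0.05. CPM used a prior count of 2 where on a log2 scale. Alternatives were TMM, DESeq2 1.42.0, limma 3.58.1, other filters, no block and leaving out animals. Another was a fit of unsummed samples with the animal and the library number range as terms. All 10 members were named, with the 3 (late) or 2 (early, medium) largest called changes of each pathway list and the 2 most correlated genes per member. Members and lists were chosen with earlier results of these data known. The other software was the R package data.table (version 1.17.8), Python 3.11.15, pandas 2.3.3 and Matplotlib 3.10.9. The test was tried on simulated data.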

Additional observations from a re-analysis of the deposited data

Results flagged for a closer look

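Single animals lay far from the rest of a group of 6 animals in 2 of 54 groups tested. That is no more than the 1 in 20 or so that chance alone gives. On Day 210 the log2 change of TLR5 in LD animal B1505 was -0.20, while the other 5 animals lay between 1.60 and 2.56. On the same day NLRC4, which rests on few counts, was at 1.61 in LD animal B1502 and between -0.52 and 0.20 in the others.

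The doses differed in their change from control at Day 30 to 60 in the tested difference for TLR5 (0.81, edgeR adjusted p = 0.00605, higher than control in 12 of 12 HD and 6 of 12 LD animals) and for PYCARD (0.65, edgeR adjusted p = 0.0339, higher in 11 of 12 HD and 8 of 12 LD animals). The HD controls included 4 of another library number range than the LD controls, whose part in the difference was not tested beyond leaving them out.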

How the results depend on the processing

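The late rise of 8 members and the rise from medium to late kept their counts of called genes within 1.5 times under every alternative run (leaving out 1 animal gave 7 to 9 and 7 to 8). The early call of 1 member became 0 with limma on the deposited log2 values and 0 with the library number range as a term. The medium count of 0 became 1 with TMM, 1 with DESeq2 and 4 with the library number range as a term. It became 6 within the same library number range (4 animals, all HD) and 0 to 2 when 1 animal was left out. The dose count of 2 at Day 30 to 60 became 4 with DESeq2, 1 with controls of the low library number range only (chosen after seeing the data) and 0 without the replicate block. The cause was not tested.

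Without the replicate block the late calls were kept except NLRP3 (0.40), and small uncalled values changed sign: in the early dose difference TLR1 0.11, TLR5 0.05, NLRC4 0.04 and PYCARD 0.01, in the early sex difference TLR6 -0.02, and in the last draw TLR5 -0.08. PYCARD in the early dose difference was also 0 with TMM, 0 with DESeq2 and 0.01 without a filter. In the last draw, leaving out 1 animal gave TLR2 -0.06 to 0.27, TLR4 -0.30 to 0.04, TLR5 -0.13 to 0.15 and AIM2 -0.29 to 0.14. The late comparison within the same library number range was not run, with 1 animal. NLRC4 had a median count of 14.5 over all samples, which limits its precision.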
